A study of Mus musculus with 6 samples.

Results

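Cholesterol synthesis, lipoprotein uptake and the SREBP2 control system were read as 31 genes. They were chosen by name from knowledge of the pathway, with earlier results of these data known. The list held 8 of the mevalonate steps, 12 of the sterol steps, 2 lipoprotein receptors, 6 genes that control SREBP2 and 3 that move sterol inside the cell. Of the 31, 29 had a probe set listed with that gene alone, among 22180 such genes on the array, and each was read at the one with the highest mean over all 6 arrays. RNA came from RAW 264.7 cells, a mouse macrophage-like line, collected 48 h after transfection with a GapmeR at 50 nM. GapmeRs are antisense strands with modified ends, and RNase H cuts the RNA to which they pair. The GapmeR of 3 samples had no target (Control), while that of the other 3 (Mist-targeted) was directed at the macrophage long noncoding RNA Mist. Both groups carried a GapmeR and the transfection reagent, and no untreated cells were among the samples. The labels name a single line and a single GapmeR against Mist, and they do not state that replicates came from separate cultures, so each p value rests on a spread between samples that may be technical.

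Cells make cholesterol from acetyl-CoA. The mevalonate steps build isoprenoid units and join them to farnesyl diphosphate, which also feeds protein prenylation, and the sterol steps condense it to squalene, close the ring as lanosterol and trim lanosterol to cholesterol. Most of these genes are targets of SREBP2, a transcription factor held in the endoplasmic reticulum by SCAP and the INSIG proteins while sterol is plentiful. When sterol runs low, SCAP carries SREBP2 to the Golgi, where the site-1 and site-2 proteases release its active part. Macrophages also take in much cholesterol by uptake of lipoproteins and dying cells, and the late endosome proteins NPC1 and NPC2 hand this cholesterol on.

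Values were log2 expression, and each difference is the Mist-targeted mean minus the Control mean in log2 units. Array medians were 4.47 to 4.50, and precision is limited by the number of arrays. All 9 macrophage markers fixed for the check of the cell type, among them Csf1r and Cd68, had levels between 8.88 and 12.9, and 7 measured markers of other cell types lay between 3.99 and 4.75. The macrophage markers had differences from -0.28 to 0.26, and 0 of them passed the test.

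Most genes from mevalonate to cholesterol had small negative differences on the Mist-targeted arrays, and no gene passed the test alone. In such bulk RNA, a lower level in every cell and a change in a share of the cells cannot be told apart. Of the 29 measured members 22 had a negative difference and 7 a positive one. Their median difference was -0.10, beside a median of 0.01 over all 22180 genes, where 47.8% of differences were below 0. The lowest was that of Mvd at -0.34, and the highest that of Lbr at 0.21. No member was called at an adjusted p under 0.05 (limma, adjusted p values from 0.22 to 0.99). Over all genes 0.203% were called lower and 0.212% higher. At an unadjusted p under 0.05, 7 members were lower and 1 was higher, beside 5.79% and 5.24% of all genes.

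In 11 of the 29 members every Mist-targeted array was below every Control array, and in 1, Lbr, every Mist-targeted array was above. Over all genes, 9.97% were separated in this way as lower and 9.99% as higher. Among the 13787 genes outside the dimmest 40% of probe sets, which hold 28 of the 29 members and all 11, the share separated as lower was 13.2%. The 11 were Hmgcs1 and Mvd of the mevalonate steps, Fdft1, Sqle, Lss, Cyp51, Msmo1 and Nsdhl of the sterol steps, the SREBP2 retention gene Insig1, and Stard4 and Npc1 of sterol transfer.

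**Figure D1:**
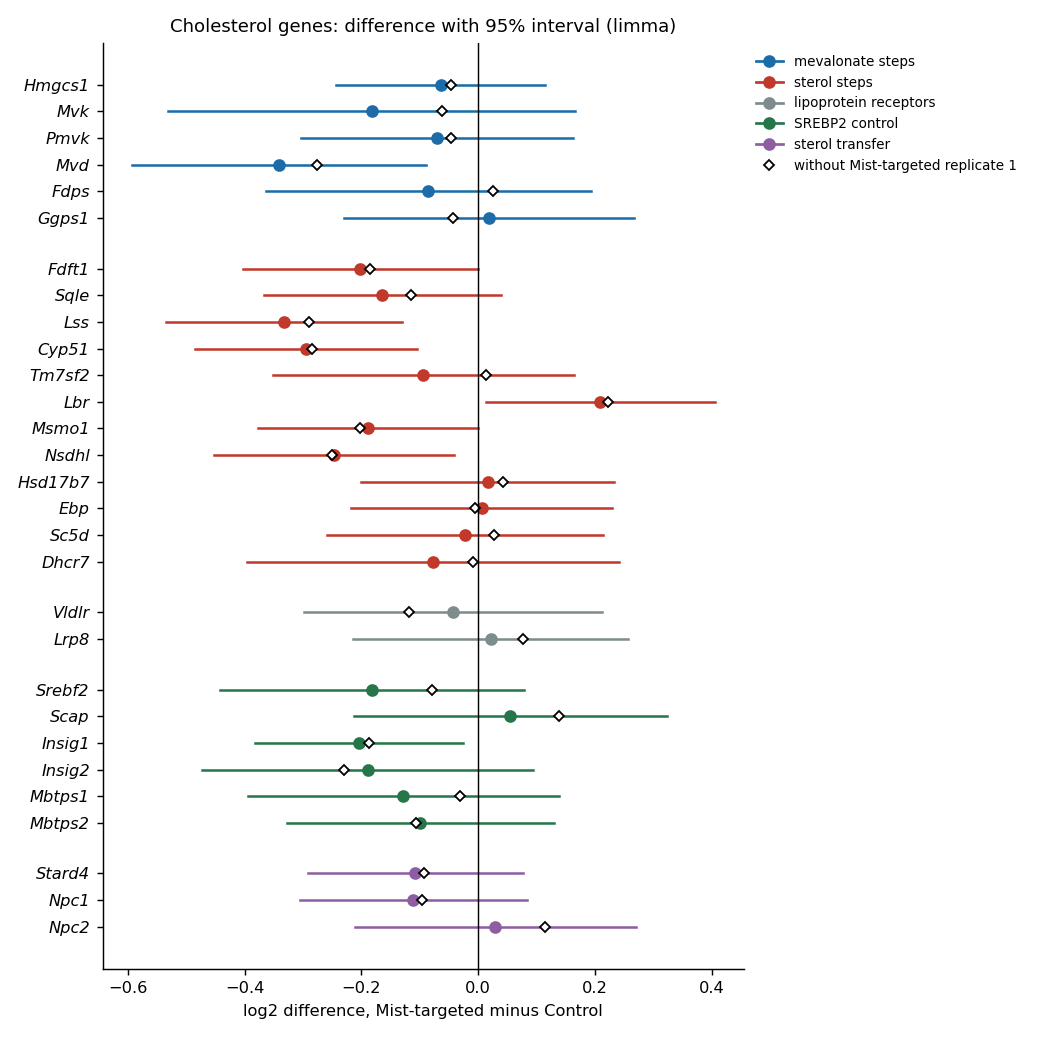
Log2 difference, Mist-targeted minus Control, of each of the 29 measured members (filled circles, coloured by role) with its 95% interval from limma, n = 3 arrays per group. Open diamonds give the difference without Mist-targeted replicate 1. Most points lie left of 0, with Mvd, Lss and Cyp51 farthest left and Lbr alone with an interval wholly right of 0.

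Promoter sequence was read for 26 of the 31 members from RefSeq windows of 300 bases (build GRCm38.p6), which run from 250 bases before a transcript's start to 50 after it. SREBP2 binds sterol regulatory elements, and it is known to act together with the factors NF-Y and Sp1, so 3 motifs were searched on both strands, without regard to overlap between motifs: the sterol regulatory element core TCACNCCAC, the NF-Y box CCAAT and the Sp1 box GGGCGG. The core was found for 1 member, Hmgcs1 (3.85% of 26), beside 1.44% of all 27025 genes with windows. With at most 1 letter changed, a search added after the first was seen, it was found for 11 members (42.3%), beside 26.7% of all genes. The NF-Y box stood in windows of 21 members (80.8%, all genes 41.1%), and the Sp1 box in windows of 22 (84.6%, all genes 38.2%). Both boxes stood in the same window for 18 members (69.2%, all genes 14.5%). Of the 11 members separated as lower 7 had a window, and all 7 held both boxes, as did Lbr and 9 of the 16 members with a window whose groups overlapped. Fdft1, Sqle, Stard4 and Npc1, also separated as lower, had no window. A link between the boxes and the differences was not tested. Promoters are shown for the letters these enzymes share before the start site: Hmgcs1 as the member with the core, and Lss and Cyp51, chosen after their values were seen, as the members with the smallest p. Capitals mark the motifs, read on either strand.
Hmgcs1, chr13:119690101-119690350, + strand: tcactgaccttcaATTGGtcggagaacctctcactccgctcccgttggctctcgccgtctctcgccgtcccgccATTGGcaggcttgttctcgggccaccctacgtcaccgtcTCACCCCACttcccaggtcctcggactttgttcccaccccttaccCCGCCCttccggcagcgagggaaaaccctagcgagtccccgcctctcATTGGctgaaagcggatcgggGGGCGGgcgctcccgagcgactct
Lss, chr10:76531355-76531564, + strand: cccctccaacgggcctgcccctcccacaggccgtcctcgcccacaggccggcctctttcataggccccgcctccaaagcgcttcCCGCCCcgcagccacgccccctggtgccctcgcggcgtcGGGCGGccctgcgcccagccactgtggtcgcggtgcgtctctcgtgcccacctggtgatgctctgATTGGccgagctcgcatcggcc
Cyp51, chr5:4104698-4104947, - strand: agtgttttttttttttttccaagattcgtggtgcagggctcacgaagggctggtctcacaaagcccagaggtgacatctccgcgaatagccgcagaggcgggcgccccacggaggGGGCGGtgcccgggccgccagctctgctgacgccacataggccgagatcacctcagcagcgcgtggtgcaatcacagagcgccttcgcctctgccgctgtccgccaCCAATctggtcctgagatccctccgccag
The Hmgcs1 stretch holds the core once, the NF-Y box 3 times and the Sp1 box 2 times. The Lss stretch, which ends before the gene's outermost annotated start, holds the NF-Y box once and the Sp1 box 2 times, and the Cyp51 stretch holds each of these boxes once. A match describes letters and is not a measured binding site.

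In the mevalonate steps the lowest difference was that of Mvd, which encodes the decarboxylase that forms isopentenyl diphosphate. Its log2 levels were 8.04, 8.20 and 8.29 on the Control arrays and 7.70, 7.83 and 7.97 on the Mist-targeted arrays. The groups did not overlap, with a gap of 0.068, and the highest Mist-targeted level came just below the lowest Control level. The difference was -0.34 ± 0.11 (SE, n = 3 per group), or 1.27-fold lower, with a 95% interval from -0.59 to -0.09 (limma, adjusted p = 0.33). It was -0.28 when Mist-targeted replicate 1 was left out.

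Hmgcs1, the HMG-CoA synthase whose promoter holds the sterol regulatory element core, had a difference close to 0. It stood at 10.28, 10.29 and 10.26 on the Control arrays and at 10.18, 10.25 and 10.21 on the Mist-targeted arrays. The groups were 0.0098 apart, and the difference was -0.06 with an interval from -0.24 to 0.12 (limma, adjusted p = 0.87). Mvk, which encodes mevalonate kinase, had levels of 6.71, 6.74 and 7.03 against 6.40, 6.90 and 6.63. Its groups overlapped, and the difference of -0.18 became -0.06 without Mist-targeted replicate 1, the lowest array, -0.08 without Control replicate 3 and -0.31 without Mist-targeted replicate 2. Fdps, the farnesyl diphosphate synthase gene, had levels of 9.78, 9.90 and 9.91 against 9.55, 9.97 and 9.81. One Mist-targeted array was the lowest of the 6 and another the highest, and the difference of -0.09 turned to 0.03 without Mist-targeted replicate 1 and to -0.18 without Mist-targeted replicate 2. The phosphomevalonate kinase gene Pmvk differed by -0.07 and Ggps1, which makes geranylgeranyl diphosphate at the branch toward prenylation, by 0.02. Both had overlapping groups. The difference of Pmvk ranged from -0.15 without Mist-targeted replicate 3 to -0.017 without Mist-targeted replicate 2, and that of Ggps1 from -0.04 without Mist-targeted replicate 1 to 0.12 without Mist-targeted replicate 3.

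The other members of the mevalonate steps could not be read at a probe set of their own. The isomerase gene Idi1 is listed on probe set 17285056 together with Gm13502, so its values may stem from either gene. That probe set stood at 8.80, 8.90 and 8.86 on the Control arrays and at 8.84, 8.72 and 8.88 on the Mist-targeted arrays, with overlapping groups and a difference of -0.04. Acat2, the cytosolic acetoacetyl-CoA thiolase gene of the entry step, was not analysed here. Of the 6 genes measured, 5 had a negative difference (all genes 47.8%), 2 were separated as lower (all genes 9.97%), and their median was -0.08.

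The sterol steps held the members with the smallest p. Lss encodes lanosterol synthase, which closes the sterol ring. Its levels were 8.68, 8.69 and 8.81 on the Control arrays and 8.31, 8.44 and 8.44 on the Mist-targeted arrays. The groups were 0.24 apart, the widest gap of any member, and the difference was -0.33 ± 0.087 (SE, n = 3 per group), 1.26-fold lower (95% interval -0.54 to -0.13; limma, adjusted p = 0.22). Cyp51, lanosterol 14-alpha demethylase, acts on the product of Lss. Its levels were 9.36, 9.24 and 9.38 against 9.01, 9.05 and 9.04, so the Mist-targeted arrays spread by only 0.020 (SD) and all lay below the Control arrays. The difference was -0.30 ± 0.081 (1.23-fold lower; limma, adjusted p = 0.24). Neither value rested on Mist-targeted replicate 1, since Lss was at -0.29 and Cyp51 at -0.28 without it.

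Before the ring is closed, Fdft1 makes squalene and Sqle oxidises it. Fdft1, squalene synthase, had levels of 9.45, 9.49 and 9.41 against 9.22, 9.18 and 9.36, and its difference was -0.20. Sqle, squalene epoxidase, had levels of 9.45, 9.41 and 9.33 against 9.13, 9.29 and 9.27, and its difference was -0.16 (-0.11 without Mist-targeted replicate 1). In both genes the Control and Mist-targeted arrays did not overlap, with gaps of 0.058 and 0.044. After Cyp51, the methyl groups at carbon 4 are removed by enzymes that include Msmo1 and Nsdhl. Msmo1, the methyl oxidase, had levels of 9.08, 9.11 and 9.03 against 8.91, 8.82 and 8.92 and a difference of -0.19. Nsdhl, the dehydrogenase, had levels of 9.53, 9.70 and 9.71 against 9.40, 9.43 and 9.36 and a difference of -0.25. Both were separated as lower, and without Mist-targeted replicate 1 they stood at -0.20 and -0.25. Adjusted p values of Fdft1, Sqle, Msmo1 and Nsdhl were 0.51, 0.63, 0.51 and 0.40 (limma).

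Lbr was the member that went the other way. It encodes the lamin B receptor, a protein of the inner nuclear membrane that also carries sterol 14-reductase activity. Its levels were 10.16, 10.26 and 10.32 on the Control arrays and 10.43, 10.44 and 10.51 on the Mist-targeted arrays. Every Mist-targeted array was above the Control arrays, and the difference was 0.21 ± 0.084 (SE, n = 3 per group), 1.16-fold higher (95% interval 0.01 to 0.40; limma, adjusted p = 0.48). Tm7sf2, which encodes the other sterol 14-reductase, differed by -0.09 with overlapping groups, by 0.01 without Mist-targeted replicate 1 and by -0.16 without Mist-targeted replicate 3. Whether Lbr and Tm7sf2 differ from each other in their response was not tested.

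The remaining sterol genes showed no separation. Hsd17b7, which works with Nsdhl on carbon 4, differed by 0.02, the isomerase gene Ebp by 0.01, the desaturase gene Sc5d by -0.02 and Dhcr7, the 7-dehydrocholesterol reductase, by -0.08. Their groups overlapped in each case, and the widest of their 95% intervals was that of Dhcr7, from -0.40 to 0.24. The difference of Dhcr7 ranged from -0.21 without Mist-targeted replicate 3 to -0.0036 without Control replicate 2. Of the 12 sterol genes, 9 had a negative difference (all genes 47.8%), and their median difference was -0.13. Separated as lower were 6 and as higher 1, beside 9.97% and 9.99% of all genes.

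**Figure D2:**
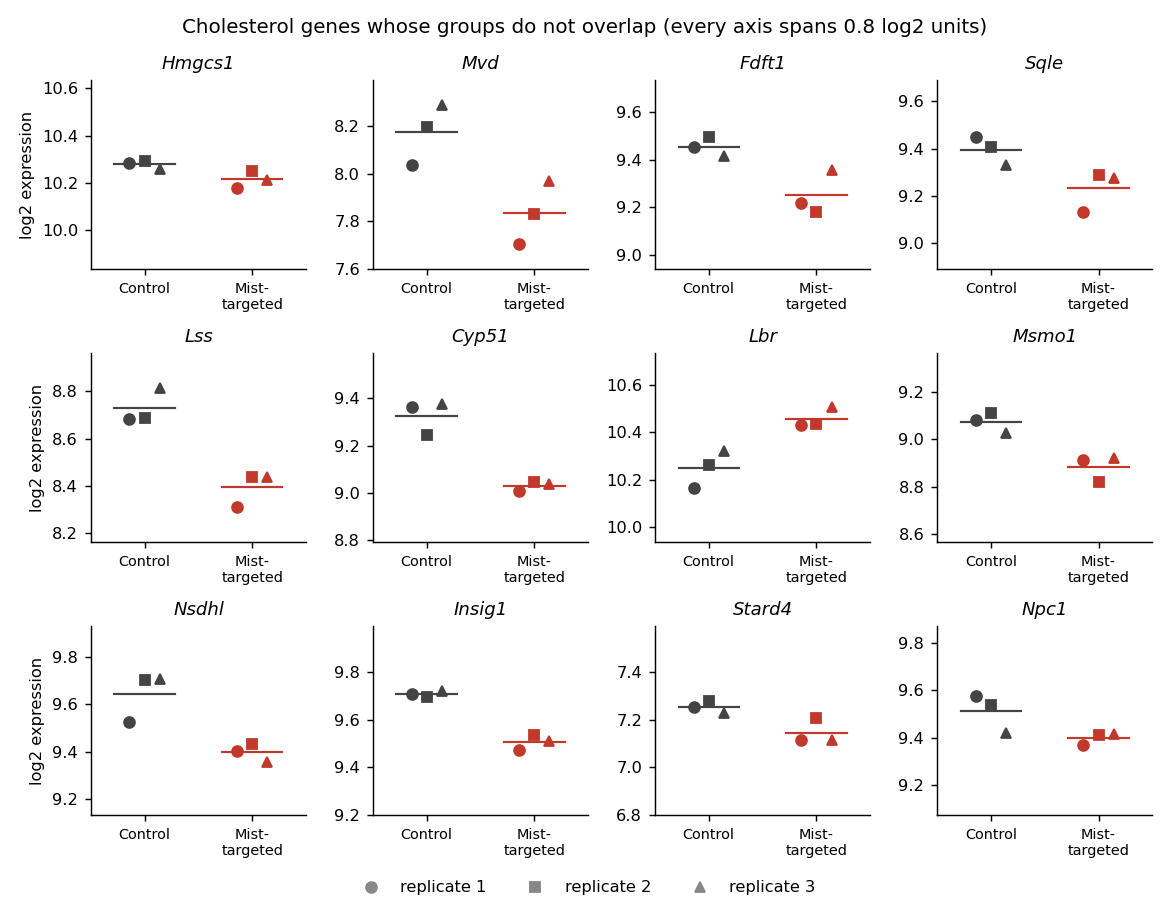
Log2 expression of the 12 members whose groups do not overlap, with Control arrays in grey, Mist-targeted arrays in red, a marker shape for each replicate number and bars at the group means (n = 3 each). The axes start at different levels but cover the same width. In Lss and Cyp51 the groups stand 0.24 and 0.20 apart, while in Hmgcs1 and Npc1 they nearly touch.

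Of the 6 control genes of SREBP2, 5 had a negative difference (all genes 47.8%), and 1 was separated as lower (all genes 9.97%). That gene, Insig1, which encodes a retention protein and is itself a target of SREBP2, had the smallest spread of them. It stood at 9.71, 9.70 and 9.72 on the Control arrays and at 9.47, 9.53 and 9.51 on the Mist-targeted arrays. The groups were 0.16 apart, beside an SD of 0.012 among the Control arrays and of 0.032 among the Mist-targeted arrays. The difference was -0.20 ± 0.076 (SE, n = 3 per group), 1.15-fold lower (limma, adjusted p = 0.43), and -0.19 without Mist-targeted replicate 1. Insig2, its relative with the same role, had levels of 7.13, 6.71 and 6.98 against 6.83, 6.67 and 6.75. The Control arrays spread by 0.21 (SD) and the groups overlapped. The difference of -0.19 became -0.30 without Control replicate 2 and -0.09 without Control replicate 1.

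Srebf2, the gene of SREBP2 itself, had levels of 9.26, 9.37 and 9.33 on the Control arrays and 8.93, 9.18 and 9.30 on the Mist-targeted arrays. One Mist-targeted array reached into the Control range, and the difference was -0.18 with an interval from -0.44 to 0.08 (limma, adjusted p = 0.69). It was -0.08 when Mist-targeted replicate 1 was left out. Mbtps1, the site-1 protease gene, had levels of 7.60, 7.63 and 7.63 against 7.30, 7.70 and 7.47. Its Mist-targeted arrays lay on both sides of the Control arrays, and its difference went from -0.13 to -0.03 without Mist-targeted replicate 1 and to -0.23 without Mist-targeted replicate 2. Mbtps2, the site-2 protease gene, differed by -0.10, and by -0.03 without Control replicate 2 and -0.05 without Mist-targeted replicate 2. A probe set listed with both Yy2 and Mbtps2, whose values may come from either gene, stood at 6.05, 5.94 and 6.04 on the Control arrays and at 6.11, 6.15 and 6.12 on the Mist-targeted arrays. There every Mist-targeted array was above the Control arrays, and the difference was 0.12 (limma, adjusted p = 0.72), opposite in sign to that of the probe set of Mbtps2 alone. Scap, the escort of SREBP2, differed by 0.06, and a further, dimmer probe set of it gave 0.08. The median difference of these 6 genes was -0.16.

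Lipoprotein receptors showed no difference larger than the spread between arrays. Vldlr, the very low density lipoprotein receptor gene, was below the median of every array, at 4.05, 3.81 and 4.03 against 4.07, 3.83 and 3.86, so a change in it may be understated. Lrp8, which encodes the apolipoprotein E receptor 2, had levels of 7.72, 7.96 and 7.87 against 7.76, 7.96 and 7.90. The groups of both genes overlapped, and the differences were -0.04 and 0.02. The 95% intervals ran from -0.30 to 0.21 for Vldlr and from -0.21 to 0.26 for Lrp8.

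In sterol transfer, Stard4 encodes a cytosolic protein that carries cholesterol between membranes and is a target of SREBP2. It had levels of 7.25, 7.28 and 7.23 against 7.12, 7.21 and 7.11, a separation of 0.019 with a difference of -0.11 (limma, adjusted p = 0.75). Npc1, the late endosome membrane protein gene, had levels of 9.58, 9.54 and 9.42 against 9.37, 9.41 and 9.42. The lowest Control and the highest Mist-targeted array were only 0.0017 apart, and the difference was -0.11. A further, dimmer probe set of Npc1 went the other way, at 4.55, 4.85 and 5.00 against 4.78, 5.11 and 4.92 (difference 0.14). Npc2, its soluble partner, had levels of 9.79, 9.93 and 9.80 against 9.70, 9.92 and 9.99, with overlapping groups and a difference of 0.03.

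The arrays were set side by side as the median deviation of each role's genes from the Control mean. For the sterol steps the Mist-targeted arrays stood at -0.23, -0.15 and -0.04, and the Control arrays at -0.05, 0.01 and 0.05, so Mist-targeted replicate 3 reached the Control range. For the mevalonate steps they stood at -0.21, 0.02 and -0.12 beside -0.08, 0.01 and 0.06, and Mist-targeted replicate 2 lay within the Control range. For the SREBP2 control genes they stood at -0.18, -0.16 and -0.08 beside -0.03, 0.03 and 0.01, with no overlap. Over all genes each array's median deviation was within 0.0099 of 0. The roles share arrays, and their medians were not tested against each other.

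Mist-targeted replicate 1 was the lowest of the 3 Mist-targeted arrays in 19 of the 29 members (65.5%), beside 36.0% of all genes. Without it the median difference went from -0.10 to -0.06 over all members, from -0.08 to -0.05 in the mevalonate steps, from -0.13 to -0.06 in the sterol steps and from -0.16 to -0.09 in the SREBP2 control genes. Of the 29 members 21 still had a negative difference, beside 48.9% of all genes. Leaving an array out cannot undo a separation, and the count separated as lower stayed at 11, with 14.7% of all genes separated so by the remaining arrays. In 17 of the 29 members, leaving out at least 1 of the 6 arrays turned the sign of the difference or moved it by over 1.5 times. Among the Control arrays, replicate 1 likewise had the lowest median deviation over all members, at -0.046 beside 0.013 and 0.018 for replicates 2 and 3. The part of replicate 1 of either group in the result beyond these values was not tested. The median of the mevalonate steps was -0.12 without Control replicate 1, -0.13 without Mist-targeted replicate 2 and -0.12 without Mist-targeted replicate 3, and that of the sterol steps was -0.20 without Mist-targeted replicate 3.

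**Figure D3:**
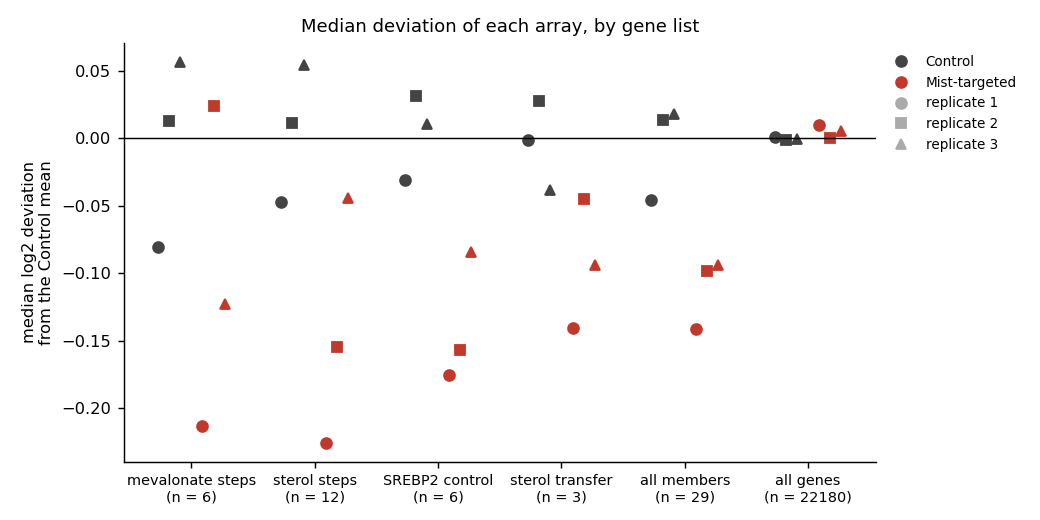
Median over the genes of each role of an array's log2 deviation from the Control mean, for Control arrays (grey) and Mist-targeted arrays (red), with a marker shape for each replicate number. The Mist-targeted medians of the SREBP2 control genes (-0.18, -0.16 and -0.08) lie below all Control medians, while for the mevalonate and sterol steps 1 array reaches the Control range, and over all genes the medians lie near 0.

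Other genes of the pathway were read from 4 lists with 51 genes, of which 45 were measured. None was called (limma), 25 had a negative and 20 a positive difference, and their median was -0.02. Separated as lower were 9 and as higher 7, beside 9.97% and 9.99% of all genes. Outside the dimmest 40% of probe sets, 13.2% of genes were separated as lower. In the branch from farnesyl diphosphate to prenylated proteins, the genes lay on both sides. Rabggta and Rabggtb, which encode the subunits of the enzyme that prenylates Rab proteins, differed by -0.31 and -0.35, both separated as lower. Fnta, the subunit shared by the enzymes that attach farnesyl groups and, in the type I enzyme, geranylgeranyl groups, differed by 0.35 and was separated as higher (8.39, 8.13 and 8.22 against 8.55, 8.43 and 8.78). Adjusted p values of these 3 genes lay at 0.29, 0.38 and 0.39 (limma). Of 11 measured genes in this branch 7 had a negative difference and 4 a positive one.

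Among redox partners of the sterol enzymes and further SREBP targets, Acss2 had the lowest difference. It encodes the cytosolic acetyl-CoA synthetase, and its levels of 7.28, 7.25 and 7.39 on the Control arrays stood against 6.67, 6.95 and 6.98. The groups did not overlap, and the difference was -0.44 ± 0.11 (SE, n = 3 per group; limma, adjusted p = 0.20). The fatty acid desaturase gene Fads1 differed by -0.14 and Pgrmc1, a haem-binding partner of Cyp51, by 0.14, and 5 of the 10 measured genes of this list were negative. Of 8 genes of sterol-regulated degradation and feedback, 5 were negative, with Erlin1 at -0.12, Tmub1 at 0.21 and Mylip, the ligase that degrades lipoprotein receptors, at 0.15. Tmub1 stood at 0.09 without Control replicate 1, and Mylip at 0.07 without Mist-targeted replicate 2. Srebf1, the gene of the relative of SREBP2 that drives fatty acid synthesis, was named here after its value had been seen and differed by -0.03.

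In cholesterol ester turnover and transport, Osbpl2 had the smallest p of all these lists. This oxysterol-binding protein relative had levels of 8.49, 8.58 and 8.50 on the Control arrays and 8.12, 8.22 and 7.99 on the Mist-targeted arrays. The groups were well apart, and the difference was -0.41 ± 0.093 (SE, n = 3 per group; 95% interval -0.63 to -0.19; limma, adjusted p = 0.16). Gramd1a, a carrier of cholesterol from the plasma membrane, differed by -0.38 and by -0.23 without Mist-targeted replicate 1. Scarb2, the lysosomal membrane protein gene, differed by 0.30 and was separated as higher. When only probe sets listed with a gene were tested, Osbpl2 and Acss2 were called lower (limma, adjusted p = 0.036 and 0.045), along with 1.80% of all genes, while 0 of the 29 members were.

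**Figure D4:**
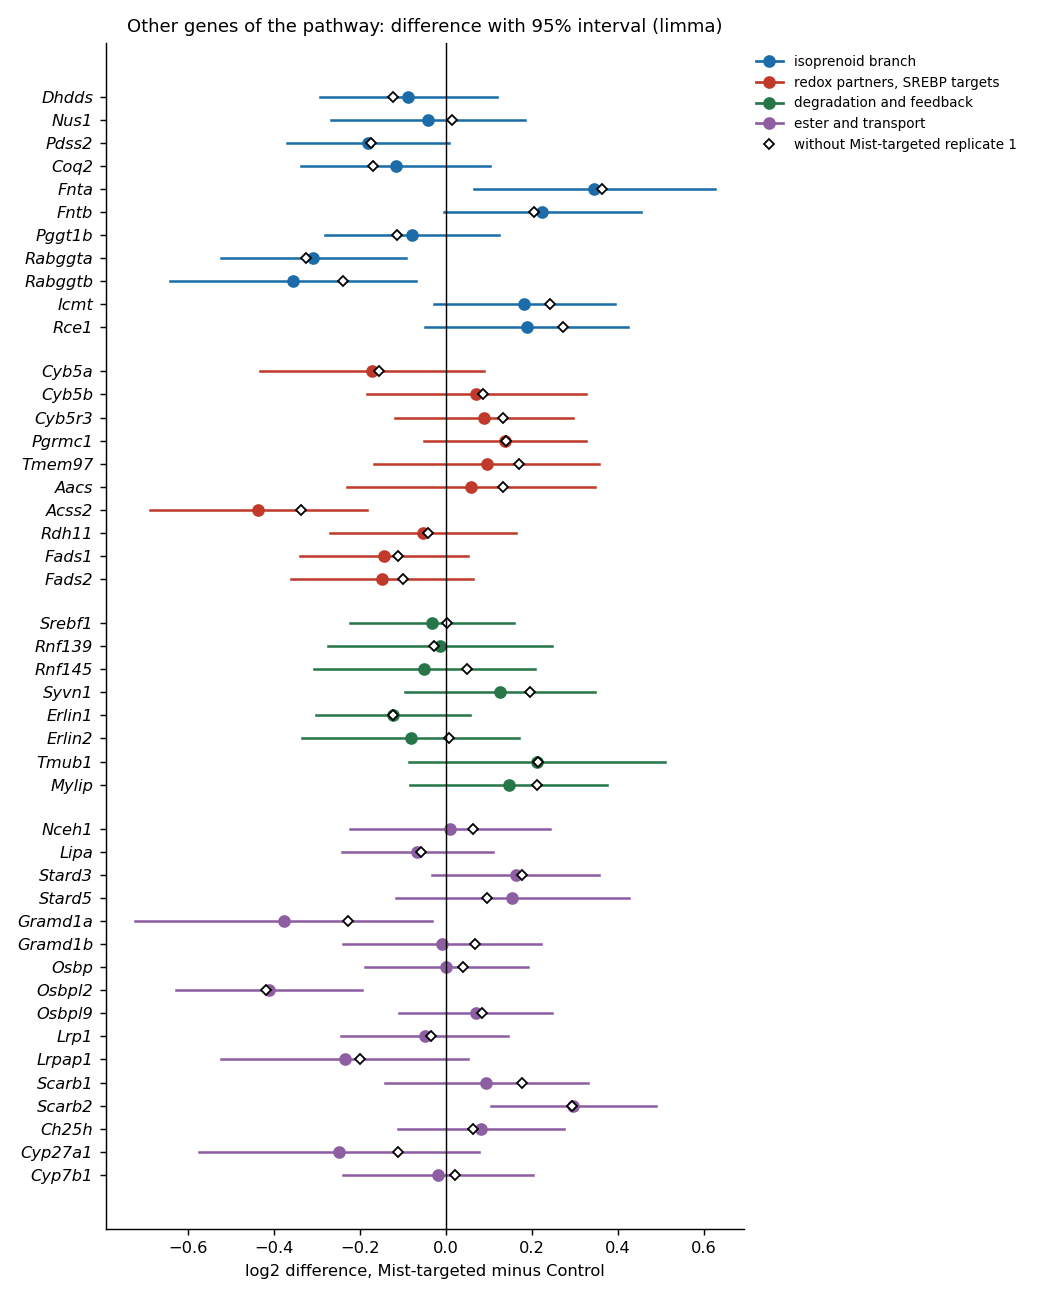
Log2 difference, Mist-targeted minus Control, of the 45 measured genes of the other 4 lists (filled circles, coloured by list) with 95% intervals from limma, n = 3 arrays per group. Open diamonds give the difference without Mist-targeted replicate 1. Points lie on both sides of 0, with Acss2 and Osbpl2 farthest left and Fnta farthest right.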

How the data were processed

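Expression was measured on 6 Affymetrix arrays of RAW 264.7 cells, 3 per group. The deposited values are log2 expression per probe set; the submitters' processing notes list RMA and Partek and give no version. RMA includes quantile normalization, which would shrink a change shared by most transcripts. The genome build and the array design: not given in the sources used here.

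The log2 values were used as deposited. Of 41345 probe sets, 23521 were listed with 1 gene, 1814 with several and 16010 not listed in the platform annotation. A linear model that held only the group was fitted to all probe sets with limma 3.58.1 (R 4.3.3; lmFit, then eBayes, with 3.48 prior degrees of freedom; two-sided), with Benjamini-Hochberg adjustment over all of them and a threshold of 0.05. With 3 arrays a group, the smallest exact permutation p is 0.1. The fit was tested on simulated data, where it recovered 183 of 200 planted changes, each larger than any member difference. Changes of the size seen in the members were not simulated. Members and lists were chosen with earlier results of these data known, so lists are given by counts and medians with no test.

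Every measured member is named. Values of all arrays are given for members whose groups do not overlap and for the 4 of each role with the smallest p. Of each other list the 3 genes with the smallest p are named with their differences. Among these, array values are given for Fnta, Acss2 and Osbpl2. Promoters come from a RefSeq table. Alternatives were a replicate block, trend and robust, no moderation, listed probe sets only, no dimmest 40%, median centring, quantile normalization, array weights, a gene's probe sets averaged, and each array left out. Python 3.11.15, pandas 2.3.3 and matplotlib 3.10.9 made tables and plots.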

Additional observations from a re-analysis of the deposited data

How the results depend on the processing

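No member was called in any of the 15 alternatives, with a lowest adjusted p between 0.072 (listed probe sets only) and 0.51 (limma; an ordinary linear model without moderation gave 0.14). Calls over all probe sets depended on the setting, with 53 higher and 52 lower in limma, 0 with the replicate block and 721 among listed probe sets only. Deviations from the group means correlated at 0.20, 0.096 and 0.033 between same-numbered Control and Mist-targeted arrays. Between arrays of different number the correlations ran from -0.15 to 0.060. The same-numbered value was the highest for each array except Control replicate 3. That array correlated at 0.060 with Mist-targeted replicate 2 and at 0.033 with Mist-targeted replicate 3. Whether same-numbered arrays belong together was not tested. With the replicate block the median of all members stayed at -0.10 with 0 members called. Leaving out each array, the median ranged from -0.14 to -0.063 over all members and from -0.18 to -0.093 in the SREBP2 control genes; that of the mevalonate steps ranged from -0.13 to -0.05 and that of the sterol steps from -0.20 to -0.06. Differences near 0 changed sign when arrays were left out, with ranges of -0.18 to 0.026 for Fdps, -0.043 to 0.12 for Ggps1, -0.16 to 0.014 for Tm7sf2, -0.027 to 0.083 for Hsd17b7, -0.067 to 0.057 for Ebp, -0.076 to 0.050 for Sc5d, -0.12 to 0.0027 for Vldlr, -0.043 to 0.077 for Lrp8, -0.0064 to 0.14 for Scap and -0.031 to 0.11 for Npc2. Ebp went to -0.00087 with median centring, and Npc1 to 0.013 as the mean of its probe sets. The median SE of a difference was 0.10 over all genes.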
